A study of Homo sapiens with 18 samples.

Results

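The genes described here are 10 sensors and adaptors of innate pattern recognition, out of 28094 genes in the deposited table. They were named by function: IFIH1, DHX58 and MAVS of the cytosolic RNA pathway, STING1 and ZBP1, which act in the sensing of DNA and of left-handed nucleic acids, the Toll-like receptors TLR2, TLR3 and TLR4, and the adaptors MYD88 and TICAM1. Each gene was read from its most abundant RefSeq transcript. LNCaP is a human prostate cancer line that responds to androgen, labelled wild type and kept here in RPMI medium. Polyadenylated RNA was sequenced from 18 libraries in 6 groups of 3, all taken after 48 h of treatment. Control cells received RPMI with 10% heat-inactivated serum. The other groups received medium conditioned by macrophages made from THP-1, a human monocytic leukaemia line, in the unpolarised state (M0 medium), after M1 polarisation or after M2 polarisation, diluted 1:4 in the same RPMI. M1 medium was also given with IKK16 at 0.7 μmol/l, an inhibitor of the IκB kinases, or with an equal amount of its solvent DMSO. The control, M0, M2 and plain M1 groups had no DMSO. The labels number the replicates without saying that they were separate cultures, so the p-values measure only the spread between these libraries, which may be technical.

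Pattern recognition receptors detect molecules of microbes or of damaged cells. IFIH1 (the protein MDA5) binds long double-stranded RNA in the cytosol and signals through MAVS on mitochondria, and STING1 on the endoplasmic reticulum answers the cyclic dinucleotide made when cytosolic DNA is sensed. Both routes lead to TBK1, interferon regulatory factors and NF-kB, while Toll-like receptors at the surface or in endosomes signal through MYD88 or TICAM1 (TRIF). Several of these genes are themselves known targets of interferon and of NF-kB, which IκB kinases release into the nucleus.

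Each tested sensor and adaptor was more abundant in LNCaP cells in M1 medium than in control medium, from a rise of 0.21 on the log2 scale for MAVS to 2.63 for TLR3, and TLR2 went from 1 count in the control libraries together to 354. Of the 10 genes, 8 had enough counts to be tested with edgeR's quasi-likelihood test. TLR4 and ZBP1 did not, and TLR2 passed the filter on low counts only through the libraries with M1 medium, so that it had to differ. All 8 tested genes were higher in M1 medium than in control at a Benjamini-Hochberg adjusted p under 0.05 over all 17033 genes tested, where 32.9% of genes were called higher. The median log2 fold change of these 8 genes was 0.97, and that of all genes tested was 0.00. The 8 were also all higher than in M0 medium, where the background was 34.2%, and than in M2 medium, where it was 34.3%. These comparisons share the M1 libraries. The libraries with M1 medium alone lay above all control libraries for each of the 8 genes, for TLR2 of necessity given the filter. How many of all genes tested were separated in this way was not counted, so the separation says nothing particular of these genes. Some macrophage markers rose with these genes and others did not. All 18 markers summed to 228 to 233 CPM in control and 265 to 291 CPM in M1 medium. Without CSF1R, which fell from 224 to 196 CPM, the other 17 summed to 5.87 to 7.09 and 75.4 to 90.3 CPM. With CSF1R but without ITGAM, S100A8 and S100A9, the sums overlapped, at 227.7 to 232.5 CPM in control and 225.5 to 245.1 CPM in M1 medium. That sum leaves out markers that rose and keeps CSF1R, which makes up most of it and fell. Within it CD68 rose from 4.93 to 36.9 CPM, so the overlap does not show that the markers left in were unchanged. FCGR3A, TYROBP and CYBB were at 0 in every library. The part of macrophage markers in the sensor values was not tested. In bulk RNA such as this, a change in the share of cells that express a gene and a change in RNA per cell cannot be told apart.

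**Figure D1:**
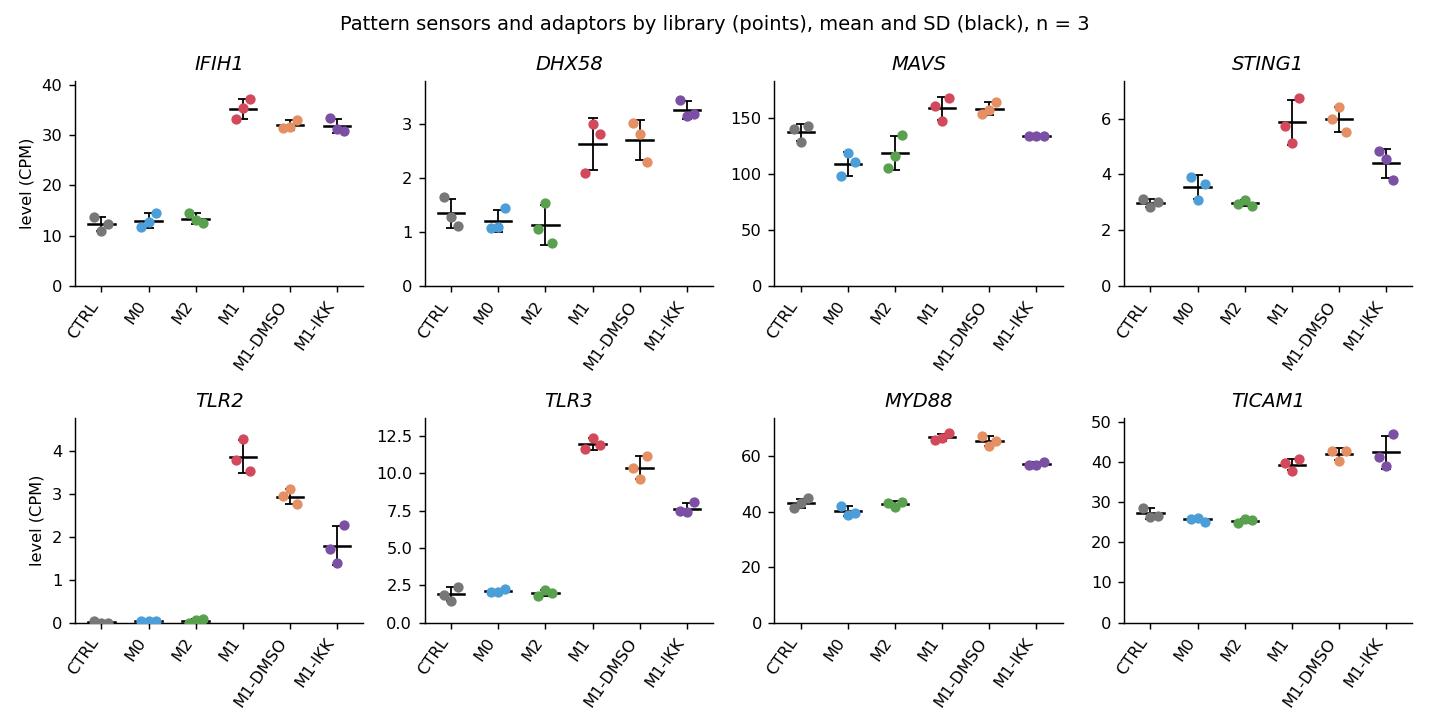
Level of each tested gene in every library, in CPM on a linear axis that starts at 0, by group; points are libraries, the long bar is the mean and the whiskers are the SD (n = 3). The points of the 3 groups with M1 medium stand above control in every panel except MAVS, where the libraries with IKK16 lie among the control libraries.

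The RefSeq promoter table of assembly GRCh38.p14 held 7 of the 10 genes, each as 250 bases before to 50 bases after the annotated start. It lacked DHX58, STING1 and ZBP1. These windows were searched on both strands for the core of the interferon-stimulated response element (GAAANNGAAA, the letters to which interferon regulatory factors bind), the gamma-activated sequence (TTCNNNGAA) and a kappa B element (GGGNNTTTCC, bound by NF-kB). Of all 35097 promoter windows in the table, 3.58% held the first, 7.66% the second and 1.91% the third. Matches stood in the windows of IFIH1, TLR3, MYD88 and TICAM1, and no match stood in those of MAVS, TLR2 and TLR4. MAVS and TLR2, without a match, were also called higher in M1 medium, TLR2 of necessity given the filter on low counts. Whether the matches bear on any rise was not tested. The 4 windows with a match are shown so that the matched letters can be read in place. They are IFIH1 (chr2:162318635-162318934, minus strand), TLR3 (chr4:186068906-186069205, plus strand), MYD88 (chr3:38138411-38138710, plus strand) and TICAM1 (chr19:4831663-4831962, minus strand), written 5′ to 3′ in the direction of the gene with matched letters in capitals.
IFIH1: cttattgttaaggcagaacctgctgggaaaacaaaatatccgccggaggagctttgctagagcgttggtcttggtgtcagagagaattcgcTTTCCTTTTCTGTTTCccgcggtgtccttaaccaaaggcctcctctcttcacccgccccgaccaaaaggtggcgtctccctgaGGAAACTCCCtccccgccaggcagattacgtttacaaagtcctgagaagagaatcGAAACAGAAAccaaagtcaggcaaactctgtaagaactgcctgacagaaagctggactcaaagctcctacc
TLR3: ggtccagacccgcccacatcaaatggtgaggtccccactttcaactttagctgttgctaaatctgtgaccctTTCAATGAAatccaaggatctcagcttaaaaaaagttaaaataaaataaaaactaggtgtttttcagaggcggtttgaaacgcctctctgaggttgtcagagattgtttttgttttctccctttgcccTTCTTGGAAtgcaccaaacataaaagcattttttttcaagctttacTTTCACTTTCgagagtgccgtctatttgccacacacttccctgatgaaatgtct
MYD88: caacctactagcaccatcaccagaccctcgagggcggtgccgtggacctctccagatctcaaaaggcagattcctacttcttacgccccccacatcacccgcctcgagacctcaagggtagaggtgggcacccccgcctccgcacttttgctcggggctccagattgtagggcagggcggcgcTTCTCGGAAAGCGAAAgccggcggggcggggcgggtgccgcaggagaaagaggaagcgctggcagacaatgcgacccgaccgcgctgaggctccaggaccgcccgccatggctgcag
TICAM1: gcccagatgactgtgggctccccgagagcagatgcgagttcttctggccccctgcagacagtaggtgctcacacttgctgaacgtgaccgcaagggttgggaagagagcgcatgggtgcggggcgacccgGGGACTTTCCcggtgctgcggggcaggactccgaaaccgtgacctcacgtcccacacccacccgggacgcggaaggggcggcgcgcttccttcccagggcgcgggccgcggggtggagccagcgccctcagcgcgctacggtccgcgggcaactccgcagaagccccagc
Positions are counted with the annotated first base of the gene as 0. In the IFIH1 window the interferon-stimulated core began at -159, at -153, where it overlaps the previous match, and at -21, and a kappa B match began at -76. The TLR3 window held an interferon-stimulated core at -4, across the annotated start, and gamma-activated matches at -178 and -50. In the MYD88 window an interferon-stimulated core at -61 overlapped a gamma-activated match at -67. TICAM1 had a kappa B match at -120. The matches describe letters in these windows and say nothing of binding in these cells.

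**Figure D2:**
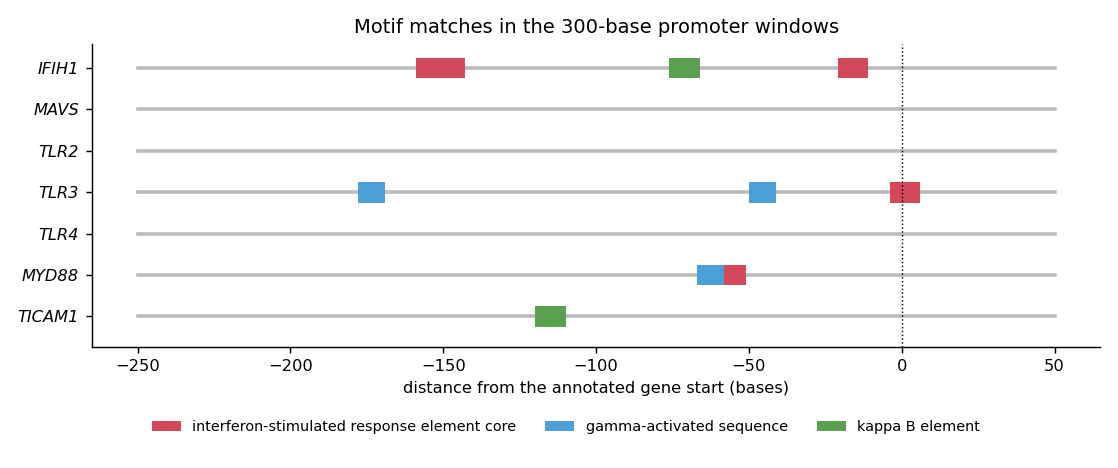
Motif matches (coloured boxes) by distance in bases from the annotated gene start, in the windows of the 7 genes that the RefSeq table holds. IFIH1 carries 4 matches, TLR3 carries 3, MYD88 carries an overlapping pair and TICAM1 carries 1; MAVS, TLR2 and TLR4 carry none.

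The RNA sensor IFIH1 rose in M1 medium and did not differ detectably with IKK16. Its levels were 13.8, 11.01 and 12.3 CPM in the control libraries (CPM, counts scaled by library size as edgeR computes them) and 33.2, 35.3 and 37.1 CPM in M1 medium. The groups did not overlap, and the fold change was 2.84 (log2 1.51 ± 0.09 SE, adjusted p = 2.45e-13, edgeR). M0 medium gave 11.7 to 14.6 CPM and M2 medium 12.4 to 14.5 CPM, both overlapping control. With DMSO the libraries held 31.3, 31.7 and 33.1 CPM, and with IKK16 33.5, 31.2 and 30.8 CPM. The last 2 groups overlapped, with a log2 difference of -0.01 and a 95% interval from -0.18 to 0.16. Among the 6 group means of IFIH1, ordered from control (12.4 CPM) over M0 and M2 to IKK16, DMSO and M1 alone (35.2 CPM), the one step between neighbours that passed the test was that from M2 medium to M1 medium with IKK16 (adjusted p = 1.98e-11, edgeR). IFIH1 lies at chr2:162267074-162318684 in GRCh38.p14.

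DHX58 encodes LGP2, a helicase related to MDA5 that lacks its signalling domains and tunes its activity. It was less abundant, with 1.65, 1.27 and 1.11 CPM in control and 2.09, 3.00 and 2.81 CPM in M1 medium. These groups did not overlap and differed 1.96-fold (log2 0.97 ± 0.21 SE, adjusted p = 0.000313, edgeR). Its libraries with IKK16 (3.15 to 3.45 CPM) all lay above those with DMSO (2.31 to 3.03 CPM), but the difference of 0.27 on the log2 scale did not pass the test (95% interval -0.13 to 0.66, adjusted p = 0.327, edgeR). M0 and M2 medium gave means of 1.20 and 1.13 CPM, within the spread of control. With 20 to 94.5 counts per library, DHX58 was measured less precisely than IFIH1.

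MAVS, the mitochondrial adaptor shared by the RNA sensors, had the smallest rise of the 8, and its call depended on single libraries. It had 140, 129 and 143 CPM in control and 161, 147 and 168 CPM in M1 medium, 2 sets close to each other without overlap. The fold change was 1.15 (log2 0.21 ± 0.08 SE, adjusted p = 0.0195, edgeR). That call was lost without control replicate 2 (adjusted p = 0.1), without M1 replicate 1 (0.0552) or without M1 replicate 3 (0.098), and with the trend on transcript length removed from each library (log2 0.08, adjusted p = 0.118), all by edgeR. MAVS was the one gene of the 8 that was lower in M0 medium than in control, with 97.9, 119 and 110 CPM (log2 -0.33 ± 0.08 SE, adjusted p = 0.0132, edgeR), against a background of 11.7% of genes called in either direction. Without control replicate 1 or M0 replicate 1 no gene of the 8 passed, with adjusted p-values for MAVS of 0.0797 and 0.0886 by edgeR. In M2 medium MAVS had 105, 116 and 135 CPM, which overlapped control (log2 -0.21, adjusted p = 0.079, edgeR).

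Transcript length moved with these MAVS values. Its transcript of 11714 bases is longer than 98.0% of those of the genes tested. Across the 16392 tested genes with a known length, the log2 fold change had a Spearman correlation with length of -0.32 in M0 medium, -0.28 in M2 medium and 0.07 in M1 medium, each against control, as a description across genes that are not independent. With the length trend removed, the log2 difference of MAVS was -0.22 in M0 medium (adjusted p = 0.00804) and -0.13 in M2 medium (adjusted p = 0.0765), both by edgeR. The rises of MAVS in M1 medium over M0 medium (log2 0.54) and over M2 medium (log2 0.42) became 0.30 and 0.22. Both still passed (adjusted p = 3.4e-06 and 0.000251, edgeR).

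STING1, the adaptor of cytosolic DNA sensing, was at 3.10, 2.82 and 3.02 CPM in control and at 5.73, 5.11 and 6.73 CPM in M1 medium. Every M1 library exceeded every control library, and the mean was 1.96-fold higher (log2 0.97 ± 0.13 SE, adjusted p = 6.93e-07, edgeR). M0 medium gave 3.89, 3.08 and 3.67 CPM and M2 medium 2.95, 3.07 and 2.85 CPM, and neither group passed against control. STING1 was lower with IKK16 (4.84, 4.54 and 3.81 CPM) than with DMSO (5.97, 6.43 and 5.54 CPM), by 0.45 on the log2 scale (log2 fold change -0.45 ± 0.13 SE, adjusted p = 0.0108, edgeR). These 2 groups did not overlap. The call was lost without DMSO replicate 2 (adjusted p = 0.0597) or without IKK16 replicate 3 (0.0641). With IKK16 the STING1 level was above control (log2 0.56, adjusted p = 0.00162, edgeR), though not detectably above M0 medium (log2 0.31, 95% interval 0.03 to 0.59, adjusted p = 0.06, edgeR).

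ZBP1, which binds Z-form RNA and DNA and can start necroptosis, had 1 count in 1 of the 3 M1 libraries, 1.5 counts in 1 library with IKK16 and none in the other 16 libraries. A count of 0 allows up to 3 counts, or 0.0898 to 0.126 CPM depending on the library, so no change of ZBP1 was detectable at this depth. CGAS, the enzyme that makes the STING1 ligand on binding DNA, was also too rare to test, with 6.5 counts in the control group, 4 in M1 medium and 0.5 to 1 in each of the other 4 groups.

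Among the Toll-like receptors, TLR2 and TLR3 rose in M1 medium and TLR4 was not detected at a level that could be tested. TLR2, a surface receptor for bacterial lipoproteins, had counts of 1, 0 and 0 in the control libraries, 1, 1 and 1 in M0 medium, and 0, 2.5 and 2 in M2 medium. In M1 medium it had 120, 126.5 and 108 counts, or 3.80, 4.29 and 3.53 CPM. The groups were far apart, yet the fold is poorly known because control had 1 count: the ratio of scaled counts was 352, with a 95% counting interval from 62.8 to 13950. Against M0 medium the ratio was 108 (36.7 to 527) and against M2 medium 85.7 (33.2 to 316). The intervals cover counting error only, since reads amplified by PCR are not independent molecules. TLR2 lies at chr4:153684280-153710637, and RNF175, whose annotation overlaps its end by 478 bases, had no count in any library.

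TLR2 was also the tested gene with the largest estimated fall under IKK16. It had 2.95, 3.11 and 2.77 CPM with DMSO and 1.71, 1.39 and 2.28 CPM with IKK16. The 2 groups did not overlap, and TLR2 fell by 0.71 on the log2 scale (SE 0.20, adjusted p = 0.011, edgeR), a call lost without IKK16 replicate 2 (log2 -0.56, adjusted p = 0.0706). Libraries with DMSO lay below all libraries with M1 medium alone, a log2 difference of -0.39 (95% interval -0.77 to -0.02) that did not pass (adjusted p = 0.207, edgeR). With IKK16, 136 counts remained over 3 libraries against 1 in control, a ratio of 163 (95% counting interval 28.8 to 6488).

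TLR3, the endosomal receptor for double-stranded RNA, is the one receptor of this family here that signals through TICAM1 alone. Its levels were 1.85, 1.48 and 2.41 CPM in control and 11.6, 12.4 and 11.9 CPM in M1 medium. The groups did not overlap and the fold change was 6.20 (log2 2.63 ± 0.12 SE, adjusted p = 7.63e-15, edgeR). M0 medium gave 2.06 to 2.23 CPM and M2 medium 1.80 to 2.18 CPM, all within the control range. TLR3 was lower with IKK16 (7.46, 7.40 and 8.07 CPM) than with DMSO (10.3, 9.63 and 11.2 CPM), at a log2 fold change of -0.44 ± 0.11 SE (adjusted p = 0.00363, edgeR). This difference passed without any single library of the 2 groups (adjusted p from 0.00496 to 0.0253, edgeR). TLR3 with IKK16 was still 3.96-fold above control (log2 1.99 ± 0.13 SE, adjusted p = 9.03e-12, edgeR). As for TLR2, each library with DMSO lay below each library of plain M1 medium, without passing the test (log2 -0.21, 95% interval -0.42 to 0.00, adjusted p = 0.233, edgeR).

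TLR4, the receptor for bacterial lipopolysaccharide, had 1 count in 1 M1 library and none in the other 17. Of its partners in lipopolysaccharide binding, LY96 and LBP passed the filter on low counts only through libraries with M1 medium, so that they had to differ. LY96 (MD-2), which forms the lipopolysaccharide-binding unit with TLR4, had 8.5 counts in the control libraries together and 395 in M1 medium, and LBP, which carries lipopolysaccharide to that complex, went from 0.0977 to 2.98 CPM. CD14, the co-receptor, stayed between 2 and 12 counts per group and was not tested.

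MYD88, the adaptor of TLR2, TLR4 and the interleukin-1 receptors, was at 41.4, 43.0 and 44.8 CPM in control and 65.9, 66.5 and 68.2 CPM in M1 medium. The libraries within a group lay close together and the groups were well separated, with a fold change of 1.55 (log2 0.64 ± 0.05 SE, adjusted p = 2.32e-10, edgeR). In M0 medium MYD88 had 38.7 to 42.1 CPM and in M2 medium 41.6 to 43.4 CPM, without a call. It was slightly lower with IKK16 (57.0, 56.9 and 57.9 CPM) than with DMSO (67.3, 63.7 and 65.5 CPM), at a log2 fold change of -0.19 ± 0.05 SE (adjusted p = 0.0075, edgeR). The 2 groups did not overlap, and the call held without any single library (adjusted p from 0.0129 to 0.0398, edgeR). MYD88 under IKK16 remained 1.33-fold above control (adjusted p = 6.11e-07, edgeR).

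TICAM1 (TRIF), the adaptor of TLR3 and of internalised TLR4, rose from 28.6, 26.4 and 26.5 CPM in control to 39.6, 37.7 and 40.6 CPM in M1 medium. The groups did not overlap and the mean was 1.45-fold higher (log2 0.53 ± 0.07 SE, adjusted p = 2.28e-07, edgeR). With M0 and M2 medium all 6 libraries lay between 24.7 and 26.0 CPM, below each control library, yet neither difference passed (adjusted p = 0.451 and 0.356, edgeR). DMSO and IKK16 gave overlapping values, 42.8, 40.2 and 42.8 CPM against 41.3, 38.9 and 46.98 CPM, with a log2 difference of 0.02 and a 95% interval from -0.12 to 0.15.

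**Figure D3:**
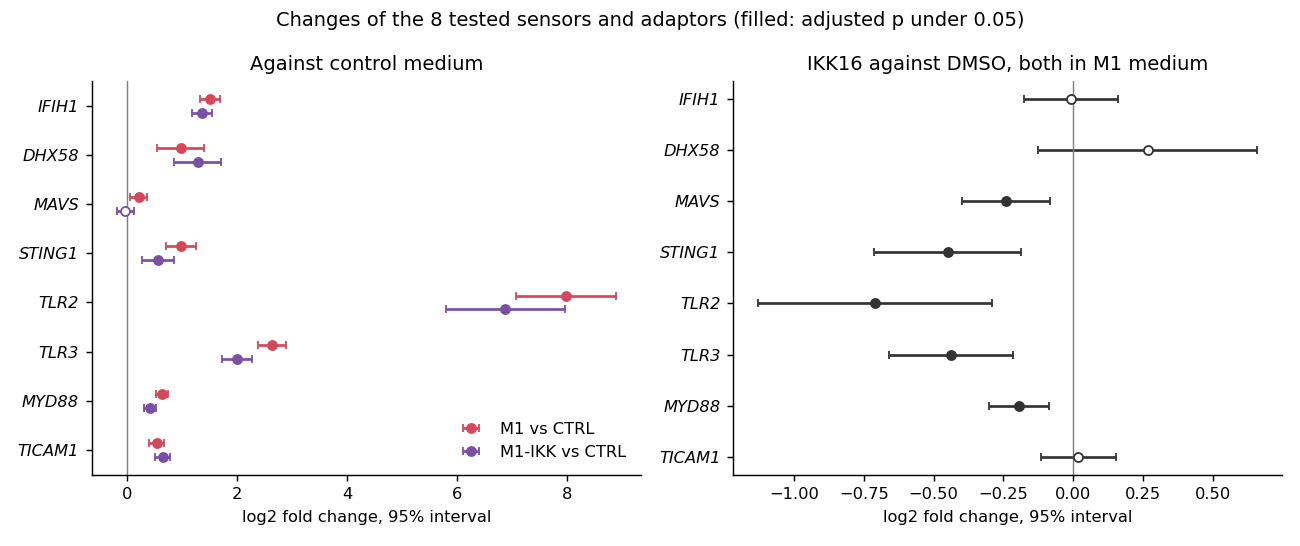
Log2 fold changes with 95% intervals for the 8 tested genes, in M1 medium and in M1 medium with IKK16 against control (left) and for IKK16 against DMSO in M1 medium (right); filled points passed the adjusted p of 0.05. On the right TLR2, STING1, TLR3, MAVS and MYD88 lie below 0 with filled points, and the intervals of IFIH1, DHX58 and TICAM1 cross 0. On the left the TLR2 intervals rest on 1 control count. They are narrower than the counting intervals of the ratio, which for M1 medium run from 62.8 to 13950. TLR2 passed the filter only through libraries with M1 medium, so that it had to differ there.

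Taking the inhibitor as a whole, 5 of the 8 tested genes were lower with IKK16 than with DMSO in the same M1 medium, namely TLR2, STING1, TLR3, MAVS and MYD88, where 12.9% of all genes were called lower. The median log2 fold change of the 8 was -0.22 against 0.01 over all genes. MAVS had 153, 157 and 164 CPM with DMSO and 134, 134 and 134 CPM with IKK16, without overlap (log2 -0.24 ± 0.08 SE, adjusted p = 0.0203, edgeR), a call lost without DMSO replicate 3 (0.0742) or IKK16 replicate 2 (0.0514). Without IKK16 replicate 2, 3 of the 8 genes passed. IFIH1, DHX58 and TICAM1 did not pass. All 18 macrophage markers summed to 256 to 274 CPM with DMSO and 260 to 278 CPM with IKK16. Without CSF1R, which had means of 193 CPM with DMSO and 226 CPM with IKK16, the other 17 summed to 67.1 to 71.9 and 39.9 to 44.3 CPM. The part of these markers in the differences was not tested. Whether the 5 genes responded differently from these 3 was not tested.

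Against control medium, which had no DMSO, 7 of the 8 genes were still higher in M1 medium with IKK16, where 27.1% of all genes were called higher. The 7 include TLR2, which passed the filter on low counts only through libraries with M1 medium, so that it had to differ. MAVS was the exception, with a log2 difference of -0.04 and a 95% interval from -0.19 to 0.12. DMSO itself changed no call among the 8 genes relative to M1 medium alone (0 of 8, 2 at an unadjusted p under 0.05, by edgeR, and 0 of 8 with DESeq2), with a background of 4.25% in either direction. M2 medium gave 0 calls of 8 against control with edgeR (1 at an unadjusted p under 0.05, and 1 call, MAVS, with DESeq2), with a background of 8.77%. M2 and M0 medium differed for 0 of 8 genes (0 at an unadjusted p under 0.05 with edgeR, and 0 with DESeq2), where 0.106% of all genes were called.

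Levels can be set side by side between genes only per transcript length. Per kilobase of transcript, the mean level in control was highest for MYD88 (15.1 CPM per kb), followed by MAVS (11.7), TICAM1 (10.2) and IFIH1 (3.44). STING1 (1.68), DHX58 (0.513), TLR3 (0.318) and TLR2 (0.0026) followed. In M1 medium MYD88 was again highest at 23.5 CPM per kb and TLR2 lowest at 0.922. TLR3 moved above DHX58 in M1 medium (1.99 against 1.01 CPM per kb). The lengths are exonic while the counts cover the whole transcript span, so these levels are approximate.

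**Figure D4:**
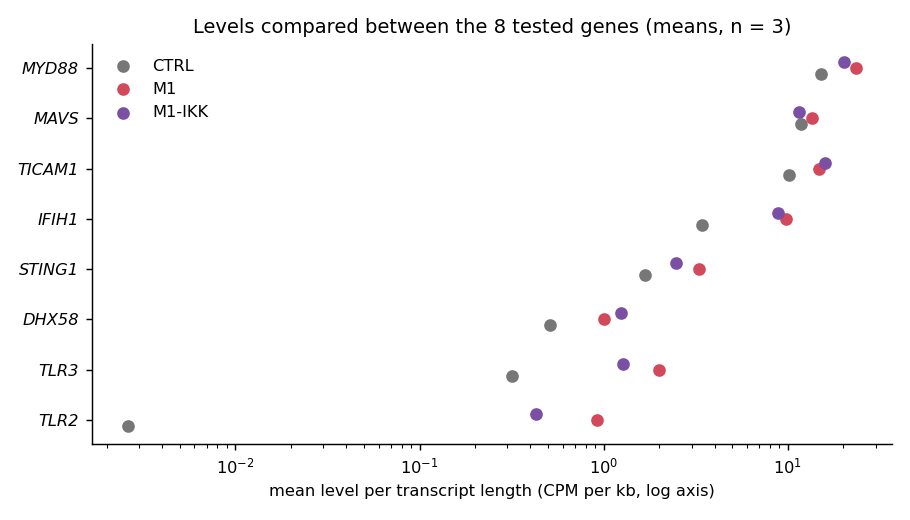
Mean level per kilobase of transcript (CPM per kb, log axis) of the 8 tested genes in control, M1 medium and M1 medium with IKK16 (n = 3 each). Genes are ordered by their control level, from TLR2 at 0.0026 to MYD88 at 15.1 CPM per kb; TLR2 spans the widest range along the axis.

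The counts of calls in the other lists are to be read against the shares over all genes tested. In M1 medium against control 32.9% were higher and 31.9% lower, and with IKK16 against DMSO 14.4% were higher and 12.9% lower. The other genes of RNA sensing moved in both directions in M1 medium. Of 15 genes, all tested, 5 were higher and 6 lower than in control, with a median log2 fold change of -0.09, counts near the shares over all genes. The highest rises were those of RIGI, the RIG-I sensor of RNA ends (5.49 to 30.6 CPM, log2 2.47), DDX60, an antiviral helicase (10.2 to 34.3 CPM, log2 1.75), and TRIM25, a ubiquitin ligase of that pathway (119 to 188 CPM, log2 0.66). ZCCHC3, a co-sensor, fell by 0.66, DHX33 fell by 0.40 and NLRX1, a mitochondrial inhibitor of MAVS signalling, fell by 0.38 on the log2 scale. Under IKK16, 4 of the 15 were higher and 2 lower than with DMSO. RIGI was among the higher (24.5 to 29.7 CPM, log2 0.27, adjusted p = 0.0154, edgeR), whereas IFIH1 had no detectable difference.

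Of the other DNA sensing genes, 9 of 11 were tested, and 3 were higher and 1 lower in M1 medium, with a median log2 fold change of 0.11. IFI16 passed the filter on low counts only through libraries with M1 medium, so that it had to differ. IFI16, a nuclear DNA sensor, rose from 0.0764 to 1.303 CPM (log2 4.01), TRIM56, a ligase that modifies STING1, rose by 1.27 and SAMHD1, a nucleotide hydrolase, by 0.86 on the log2 scale. TREX1, the exonuclease that degrades cytosolic DNA, fell by 0.49. With IKK16, 2 of the 9 were lower than with DMSO and none was higher, IFI16 among the lower (1.10 to 0.345 CPM, log2 -1.64, adjusted p = 0.00149, edgeR). IFI16 reached the filter cutoff in 8 libraries with M1 medium, so the filter may have favoured this fall as well.

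Of 15 other Toll-like receptors and accessory proteins 10 were tested, and 6 were higher and 1 lower in M1 medium, with a median log2 fold change of 0.91 that was the same with the gene without a control count at its lower bound. LY96 rose by 5.55, LBP by 4.86 and TLR1, the partner of TLR2, by 4.09 on the log2 scale, the last from 0.0536 to 1.01 CPM. HSP90B1, the chaperone of Toll-like receptors, fell by 0.15. Of the 6 higher genes 5, namely TLR1, TLR6, TLR7, LY96 and LBP, passed the filter on low counts only through libraries with M1 medium, so that they had to differ and their calls support nothing. The median of the 10 tested genes shares this limit. IKK16 left 6 of the 10 lower than DMSO and none higher, a count that the filter limits too. LBP, TLR6 and TLR7 reached its cutoff in 6 libraries with M1 medium, TLR1 in 7 and LY96 in 9. For a gene that passed mainly through libraries without IKK16, the filter favoured a lower level with IKK16. LBP fell by 2.65 (1.60 to 0.251 CPM), TLR1 by 1.21 and LY96 by 1.20 on the log2 scale.

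Downstream, 21 of 23 adaptors and kinases were tested, and 16 were higher and 1 lower in M1 medium, with a median log2 fold change of 0.57. IRAK2, a kinase on the MYD88 complex, rose from 4.61 to 57.2 CPM (log2 3.63), IKBKE, a relative of TBK1, from 5.83 to 39.3 CPM (log2 2.75) and CASP8 from 23.3 to 71.6 CPM (log2 1.62). SARM1, an adaptor that can restrain TICAM1, fell by 0.21. With IKK16, 1 was higher and 5 were lower than with DMSO, IKBKE (log2 -0.37) and CASP8 (log2 -0.35) among them. IRAK2 did not pass there. Of 8 NOD-like sensors and partners, 6 were tested and 3 were higher: CASP1, which had no count in control, passed the filter only through M1 medium and was at least 11.8-fold higher at 1.17 CPM, NOD2 (log2 2.96) and RIPK2 (log2 0.40). None of the 6 was lower in M1 medium, and with IKK16 1 was lower than with DMSO. The median of these 6 was 0.43, also with CASP1 at its bound. None of these counts shows that a list stands apart from other genes.

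**Figure D5:**
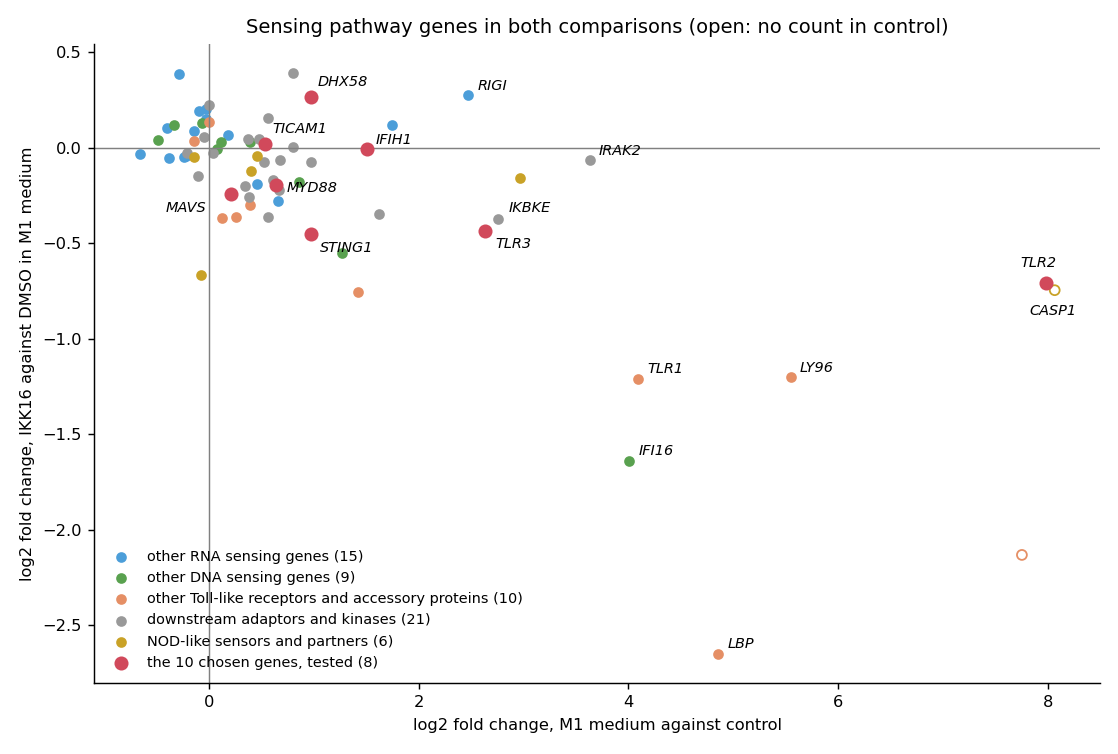
Log2 fold change in M1 medium against control (horizontal axis) and for IKK16 against DMSO in M1 medium (vertical axis) for each tested gene of the 10 and of the 5 other lists; open points had no count in control, and their horizontal position depends on the prior count. TLR2 lies far to the right with a vertical value of -0.71, RIGI and DHX58 lie above 0 on the vertical axis, and LBP lies lowest at -2.65.

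By library, the genes most like each tested sensor were sought by Pearson correlation of log2 CPM over the 18 libraries among 14776 genes of at least 1 CPM on average, as a description in which all points share the same 6 groups. APOL3 (r = 0.994), RIGI (0.992) and SPX (0.992) were most like IFIH1. The A20 gene TNFAIP3, DNAJC12 and APOL6 (each 0.995) were most like TLR2, and ITPRID2 (0.997), CEACAM1 (0.996) and DNAJC12 (0.996) most like TLR3. CDKN2B (0.994), ID1 (0.991) and IGFBP3 (0.990) were most like MYD88. For TICAM1 they included PINK1 (0.987) and PINK1-AS (0.985), which overlap and may share reads. The nearest genes were less close for MAVS (LIMD1 0.981, then TRIO and TBC1D16), STING1 (BLOC1S5-TXNDC5 0.964, TXNDC5 0.959, ABHD16A 0.955) and DHX58 (HBEGF 0.948, HEATR6-DT 0.947, GALNT7-DT 0.945). BLOC1S5-TXNDC5 and TXNDC5 may likewise share reads.

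Libraries held 24201417.5 to 33812904.5 counts over genes. The epithelial and prostate markers of LNCaP were all detected, KLK3 (PSA) at 3714 CPM in control and 154 CPM in M1 medium. Of 18 macrophage markers, FCGR3A, TYROBP and CYBB had no count in any library. The summed level of the 18 was 228 to 233 CPM in control and 265 to 291 CPM in M1 medium, most of it CSF1R (224 and 196 CPM), which was lower in M1 medium. Of the 9 that were tested, 6 were higher and 2 lower in M1 medium. CD68 rose from 4.93 to 36.9 CPM, while ITGAM, LYZ, LAPTM5, S100A8 and S100A9, also higher, passed the filter only through M1 medium. The median log2 fold change of the 9 was 4.93, or 4.21 with S100A8, which had no control count, at its bound. As 5 of the 9 passed only through M1 medium, this median had to be high and says nothing of the markers as a set.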

How the data were processed

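The authors deposited 1 table of expected counts, as multiples of 0.5 without normalisation, for 70507 RefSeq transcripts in 18 libraries. Per the submitters' processing notes, hg38, Trimmomatic, BWA 0.7.17 and HOMER 4.10 were used; the sources used here do not give their roles, how reads with several matches were treated or whether strand was used. Transcripts of 1 gene with the same start and end but lengths over 1.3-fold apart had totals equal within 1% in 69 of 70 genes, so counts follow the whole transcript span, introns included, and cannot separate isoforms. A total of 69830 transcripts were named from an NCBI table (GRCh38.p14), 344 from GENCODE 29, and 333 (0.0883 to 0.109% of counts) stayed unnamed and were left out. Each of 28094 genes was represented by its transcript of highest total. Its length was the exonic length of its longest coding transcript in the basic set of GENCODE 29, or else of its longest transcript there. Counts were rounded, and edgeR 4.0.16 (R 4.3.3) was used for the tests (TMM scaling, filterByExpr on the 6 groups, quasi-likelihood test on all 18 libraries, two-sided, Benjamini-Hochberg adjustment): 17033 genes were tested, 11061 were not, with a biological coefficient of variation of 0.0627. CPM are TMM-scaled. Replicate pairs differed by more than sampling noise (chi-square per gene 2.68 to 21.0). The procedure was tested on simulated data.

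All 10 members are named, and of each other list up to 3 genes per direction called in M1 medium against control with the largest change and at least 1 CPM in either group. The members and lists were chosen with earlier results of these data known. Alternatives were DESeq2 1.42.0, its scaling within edgeR, no filter, a filter of 1 CPM in 3 libraries, the 2 groups alone, the longest transcript, the replicate number as a block, removal of a length trend and each library left out. One gene that the rule for likeness picks is not reported here.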

Additional observations from a re-analysis of the deposited data

How the results depend on the processing

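Over all alternatives, 568 refitted fold changes of single genes stayed on their side of the threshold in the same direction, 11 lost a call, 4 gained one and 5 changed sign. M1 medium against control gave 8 calls, 7 with the length trend removed and 7 to 8 when a library was left out. M0 medium against control gave 1 call, and 0 to 1 when a library was left out. M2 medium against control gave 0 calls, 1 without a filter on low counts, 1 with DESeq2 and 0 to 1 when a library was left out; each time the gene was MAVS. IKK16 against DMSO gave 5 calls, and 3 to 5 when a library was left out. The sign changed for IFIH1 (log2 -0.0492 to 0.0122) and TICAM1 (log2 -0.0668 to 0.0744) in IKK16 against DMSO when a library was left out; neither passed a test. The cause was not tested. The replicate numbers of the labels did not pair the libraries (correlation of deviations -0.15 to 0.15), and with the replicate block no count of calls changed (8 for M1 medium against control, 5 for IKK16 against DMSO). Depth limits TLR4, ZBP1 and the control level of TLR2, each at 0 to 1 counts per library in control.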

Other observations

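The nearest annotated neighbours of the RNA sensors did not share their rise in M1 medium; they were looked at after the values of the sensors were seen. GCA, which encodes the calcium-binding protein grancalcin, begins 79 bases from the IFIH1 start, inside the promoter window shown for IFIH1. It had 29.8 ± 1.0 CPM in control and 30.5 ± 1.8 CPM in M1 medium (SD, n = 3; log2 0.03, 95% interval -0.12 to 0.19, adjusted p = 0.693, edgeR), while IFIH1 rose 2.84-fold. KAT2A, a histone acetyltransferase gene 397 bases from DHX58, was lower in M1 medium (145 ± 4.9 against 85.5 ± 5.9 CPM; log2 -0.77, adjusted p = 8.84e-12, edgeR), while DHX58 was higher.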
